A study of Zea mays with 17 samples.

Results

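Whole fixed anthers (FA) of maize at an anther length of 1.5 mm were described as a sum of the 3 kinds of cells captured at that length: meiocytes (ME), tapetum (TAP) and other somatic cells (OSC). Levels of FA in CPM (counts scaled to the same total in each library) were fitted by non-negative least squares, on the linear scale and over all 46430 rows of the count table, to the mean CPM of the 3 cell types. The comparison used 9 of the 17 libraries: 3 FA libraries and 6 captured libraries, 2 for each cell type. All plants were of the inbred line W23 bz2, labelled wild type, so every group shares the bz2 allele of an anthocyanin pigment gene. The captured cells were taken by laser microdissection, which cuts chosen cells out of tissue sections, and the anthers were staged by length alone. Libraries were made with CEL-seq2, a method that starts reverse transcription at the poly(A) tail and so counts transcript ends. How many anthers or plants went into a library is not stated, so the spread between replicates may be technical.

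A maize anther lobe holds the meiocytes in its centre. The tapetum, a secretory layer that feeds the meiocytes and later supplies pollen wall material, surrounds them, and a middle layer, an endothecium and an epidermis lie outside it. The labels do not say which of these outer layers, or which tissues between the lobes, were captured as OSC. In a mixture whose shares sum to 1, the level of a gene in the whole organ lies between its lowest and highest level in the parts. A share fitted in this way is a share of counts, and fewer cells of a type cannot be told apart from less RNA per cell.

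Totals of the 9 libraries ran from 280760 counts in OSC replicate 2 to 3440610 in FA replicate 3. The 3 FA libraries were closely alike, with Pearson's r of log2(CPM + 5) between 0.958 and 0.969 across 15965 genes, while replicates of captured cells reached 0.772 in ME, 0.796 in OSC and 0.845 in TAP. ME replicate 2 stood apart: it was closer to ME replicate 1 at 2.0 mm (r = 0.894) than to its own replicate. The nuclear rows of the table carry identifiers without symbols, and no marker gene of the 3 cell types could be matched, so the cell type labels were not checked against markers.

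The fit to all rows gave FA at 1.5 mm a share of 42.3% ME, 57.7% OSC and 0% TAP. Fitted to each FA library on its own, the ME share was 44.0%, 43.5% and 36.9%, the OSC share 56.0%, 52.7% and 61.1%, and the TAP share 0%, 3.76% and 1.97%, for replicates 1, 2 and 3. The mean shares were 41.5 ± 3.94% ME, 1.91 ± 1.88% TAP and 56.6 ± 4.21% OSC (SD, n = 3). The coefficients behind these shares summed to only 0.526, where an exact mixture would give 1, and FA lay above the fitted profile for the median tested gene. The SD covers the FA libraries and not the error of the captured profiles.

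The TAP share of 0% changed when 1 mitochondrial row was left out. The rrn26 gene (ZeamMr002), which encodes the 26S ribosomal RNA of the mitochondrial ribosome, had the highest level over the means of the 4 groups, although in FA itself 2 nuclear rows were higher, at 9094 and 9016 CPM against 8509 CPM. It held 56655 and 66024 CPM in TAP, 30590 and 15404 CPM in ME, 23363 and 17356 CPM in OSC, but 7128, 11301 and 7100 CPM in FA. All 6 captured libraries lay above all 3 FA libraries, and TAP was the highest cell type. With rrn26 left out, a choice made after its weight was seen, the shares became 35.7% ME, 21.5% TAP and 42.9% OSC. The TAP share of the single FA libraries was then 10.2%, 4.20% and 40.5%, so it was far from even between replicates. Leaving out any other of the 20 most abundant rows kept the TAP share between 0% and 1.34%.

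Settings that take weight from abundant or organelle rows gave TAP a larger share. Nuclear rows alone gave 33.7% ME, 30.1% TAP and 36.2% OSC. Without the 50 most abundant rows the shares were 24.95%, 30.5% and 44.5% in the same order, with a coefficient sum of 0.965. With each row divided by the square root of its mean level, they were 28.7%, 29.5% and 41.8%, and a fit on the log2 scale gave 25.5%, 33.8% and 40.8%. Fitted to each FA library with square root weights, the shares were 28.8 ± 1.36% ME, 29.4 ± 2.76% TAP and 41.8 ± 1.59% OSC (SD, n = 3). TMM-scaled library sizes, by contrast, left the TAP share at 0%, with 34.3% ME and 65.7% OSC.

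**Figure D1:**
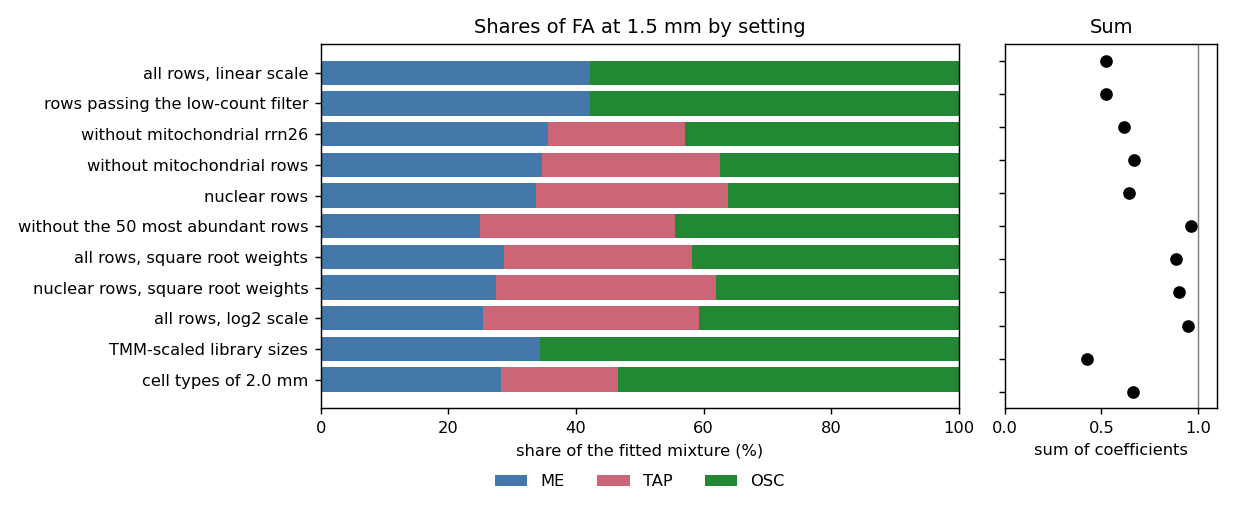
Shares of ME, TAP and OSC in the mixture fitted to the mean of the FA libraries at 1.5 mm (left, percent of the sum of coefficients) and that sum (right, with a line at 1) under 11 settings. TAP is at 0% in the linear fit to all rows and at 21.5% once the rrn26 row is left out; the sum of coefficients is 0.526 in the first and 0.887 with square root weights.

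The second most abundant row by the same measure, a nuclear gene without a symbol, held 6075, 1406 and 19569 CPM in the 3 FA libraries, a 13.9-fold range within the group. In ME it held 18198 and 397 CPM. In the linear fit to nuclear rows the TAP share came out at 18.0%, 6.34% and 52.3% for FA replicates 1, 2 and 3. The highest share came from the library with the most of that row, and the part of the row in this spread was not tested. With a single captured library for each cell type, the 8 possible combinations gave a linear TAP share between 0% and 13.2% and an ME share between 31.3% and 45.5%. Without ME replicate 2 the shares were 42.7% ME, 0% TAP and 57.3% OSC, and without ME replicate 1 they were 32.6%, 7.09% and 60.3%.

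Genes enriched in 1 cell type were also described without a joint fit, by the FA level divided by the level in that cell type. In a mixture this ratio equals the share of the type only for a gene found in that type alone. The edgeR quasi-likelihood test called 1573 genes higher in ME than in both other types, 324 in TAP and 918 in OSC, at an adjusted p-value under 0.05. FA held a median of 36.3% of the ME level for the ME genes, with quartiles of 19.8% and 57.5%. For TAP genes the median was 30.7% (18.0% to 48.8%), and for OSC genes 38.9% (22.3% to 60.5%). By FA library the medians were 36.2 ± 1.09% for ME, 30.6 ± 3.29% for TAP and 38.6 ± 2.34% for OSC (SD, n = 3). The genes were chosen for high levels in the captured libraries used as the denominator, and the medians are given as a description. The choice set no limit on the level in the other types, which adds to the ratio. The 3 medians summed to 105.9%, so they are not read as shares.

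**Figure D2:**
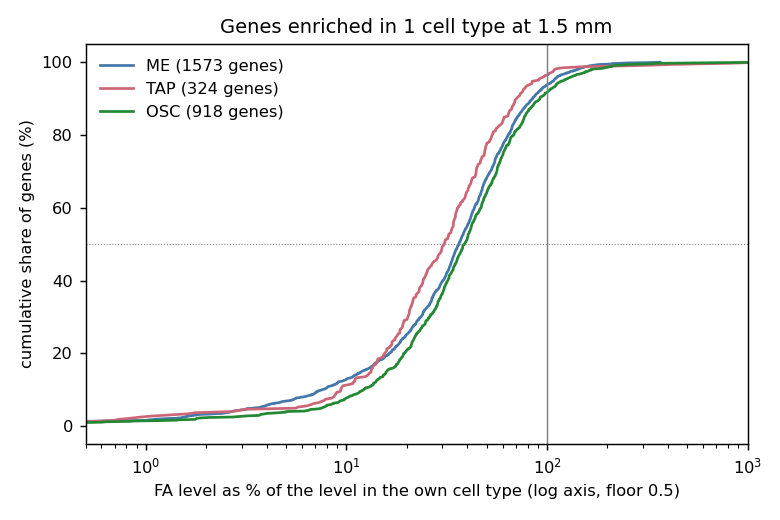
Cumulative share of enriched genes (percent) against the FA level as a percent of the level in the cell type of enrichment (log axis), for 1573 ME, 324 TAP and 918 OSC genes at 1.5 mm. The curves cross the dotted line of the median at 36.3%, 30.7% and 38.9%, and each spans more than a factor of 10.

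Single genes departed widely from these medians. FA held more than the full own-type level for 99 ME genes (6.29%), 12 TAP genes (3.70%) and 77 OSC genes (8.39%). At the other end, FA held under 5% of that level for 108 ME genes (6.87%), 15 TAP genes (4.63%) and 36 OSC genes (3.92%). In the 2.0 mm libraries, which took no part in choosing them, the same genes had median ratios of 32.6% for ME, 99.7% for TAP and 39.7% for OSC.

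The quality of the mixture was well below that of 1 FA library predicted from the others. The linear fit reached an R2 of 0.690 and left 29.3% of FA counts unmatched, meaning that share of the profile would have to be moved between genes to turn the prediction into FA. An FA library predicted from the mean of the other 2 left 8.45%, 8.96% and 8.38% unmatched. Single cell types left 45.7% (ME), 39.3% (TAP) and 36.6% (OSC). Replicate 1 of a captured cell type, predicted from its replicate 2, left 34.2% (ME), 18.5% (TAP) and 20.9% (OSC). The spread of the captured profiles thus enters the misfit of the mixture as well, and its part was not tested. On the log2(CPM + 5) scale, Pearson's r across all rows was 0.906 for the linear fit and 0.930 with square root weights. It was 0.986 to 0.989 between FA libraries and 0.789, 0.852 and 0.873 for ME, TAP and OSC alone. R2 rests mainly on abundant rows, and FA replicates 2 and 3 predicted from the other FA libraries had an R2 of 0.708 and 0.687, against 0.926 for replicate 1. With square root weights R2 was -0.17, although 77.1% of the 15965 tested genes then lay within 2-fold of the prediction, against 56.8% for the linear fit and 98.3% to 99.3% between FA libraries.

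Genes off the mixture were tested with limma on log2(CPM + 5), 3 FA libraries against 2 predicted profiles made from replicate 1 and replicate 2 of the cell types, adjusted by Benjamini-Hochberg over 15965 genes. With the linear fit 7987 genes (50.0%) lay above the prediction and 813 (5.09%) below. With a coefficient sum of 0.526 the median difference over all tested genes was 0.79 on the log2 scale, so changes are read beside that shift. With the median difference set to 0, 2542 genes (15.9%) lay above and 2555 (16.0%) below. With the prediction scaled to a sum of 1 the numbers were 2629 (16.5%) and 1649 (10.3%), with square root weights 3507 (22.0%) and 1657 (10.4%), and with equal shares 2678 (16.8%) and 1930 (12.1%). Called under all 5 of these settings were 1682 genes above the mixture (10.5%) and 793 below (4.97%), and these are described next. Another setting, square root weights with the median difference set to 0, was added after the data were seen and gave 2155 genes above (13.5%) and 2372 below (14.9%). It called 1581 of the 1682 and all 793. The test treats the fitted shares as known, and so leaves out their error.

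The rows above the mixture were nuclear without exception, 1682 of 15712 tested nuclear rows. Their median level was 79.8 CPM in FA, against 13.9 CPM in ME, 32.1 CPM in TAP and 26.2 CPM in OSC. TAP was the highest of the 3 cell types for 788 of them (46.8%), against 31.2% of all tested genes. In the linear fit, also when scaled to a sum of 1 or with the median difference set to 0, TAP had a share of 0%. Those predictions place genes high in TAP above the mixture more easily, so this excess is partly set by the fit. Their median length was 2480 bases, against 2219 for all tested genes. At 2.0 mm these genes stood at a median of 45.8 CPM in FA, with 40.6 CPM in TAP and 35.4 CPM in OSC.

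Below the mixture the makeup was different, with 675 nuclear, 58 mitochondrial, 20 plastid and 40 non-coding RNA rows. The median level was 4.195 CPM in FA against 24.9 CPM in ME, 10.1 CPM in TAP and 28.6 CPM in OSC. OSC was highest for 379 (47.8%), ME for 309 (39.0%) and TAP for 105 (13.2%), against 37.5%, 31.3% and 31.2% of all tested genes. The same predictions without TAP make genes high in TAP less likely to fall below, so the low TAP number is partly set by the fit. The median length was 1499 bases. For the 675 nuclear rows alone, the FA median was 3.39 CPM at 1.5 mm and 16.2 CPM at 2.0 mm, with 26.5 and 12.3 CPM in OSC at the same lengths. The rows were chosen for low FA against the prediction at 1.5 mm. Their levels at that length, and the contrast with 2.0 mm, are thus partly set by the choice.

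**Figure D3:**
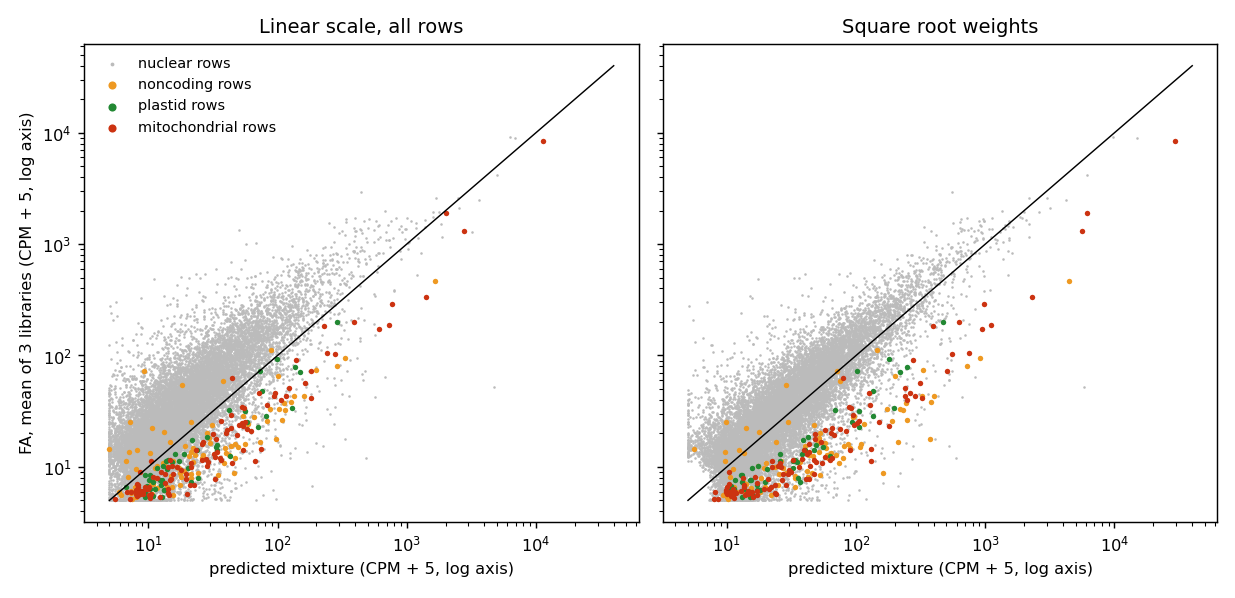
Mean level of 15965 tested rows in FA at 1.5 mm against the predicted mixture, both as CPM + 5 on log axes, for the linear fit (left) and the fit with square root weights (right); the line marks equality. Nuclear rows lie mostly above the line on the left, where the coefficients sum to 0.526, and mitochondrial, plastid and non-coding rows lie below it on both sides for most of the range.

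Rows of the organelles lay below the mixture far more often than nuclear rows. Of 110 mitochondrial rows tested, out of 208, 58 (52.7%) lay below the mixture under all 5 settings and 0 above, beside 4.97% below over all tested rows. Of 51 plastid rows tested, out of 157, 20 (39.2%) lay below and 0 above. Among 92 non-coding RNA rows tested, out of 1765, 40 (43.5%) lay below and 0 above. With square root weights the median differences were -1.67 for mitochondrial, -1.45 for plastid and -1.63 for non-coding rows on the log2 scale, against 0.25 for nuclear rows. In plant organelles a poly(A) tail marks RNA for decay, and ribosomal and transfer RNAs carry no regular poly(A) tail, so their counts in a poly(A)-primed library are not a measure of organelle number. The 154 microRNA rows held 0 counts in every library and could not be described.

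The deficit was already present in the library totals. Mitochondrial rows took 1.29%, 1.83% and 1.20% of counts in the 3 FA libraries at 1.5 mm. They took 7.40% and 3.53% in ME, 9.83% and 10.7% in TAP, and 4.06% and 3.56% in OSC. The lowest captured library was thus 1.93 times the highest FA library, and no weighting of the captured libraries with shares that sum to 1 can give the FA value. The difference between 3 FA and 6 captured libraries had an exact two-sided permutation p-value of 0.0238, or 0.0714 adjusted over 6 tests of row classes, a test chosen after the values were seen. This unadjusted value is the smallest that 3 against 6 libraries allow. The captured libraries come from 3 cell types that differ among themselves, so they are not replicates of a common condition. Non-coding RNA rows separated the same libraries, with 0.156% to 0.235% in FA and 0.394% to 2.59% in captured cells (exact permutation p = 0.0238, adjusted 0.0714). Plastid rows took 0.0700% to 0.102% in FA and 0.0994% to 0.415% in captured cells, where ME replicate 2 overlapped FA (exact permutation p = 0.0476, adjusted 0.0857).

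At 2.0 mm the mitochondrial share of FA lay within the range of its cell types. FA held 1.33% and 1.05%, TAP 0.934% and 0.956%, OSC 1.103% and 1.31%, and ME 4.23% and 6.05% (exact permutation p = 0.857 for 2 FA against 6 captured libraries). The plastid and non-coding shares at 2.0 mm were lower in FA, at 0.0258% to 0.0343% and 0.168% to 0.179%, than in every captured library of that length (exact permutation p = 0.0714 for each, 0.0857 adjusted). This unadjusted value is the smallest that 2 against 6 libraries allow, and the captured libraries again come from different cell types.

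**Figure D4:**
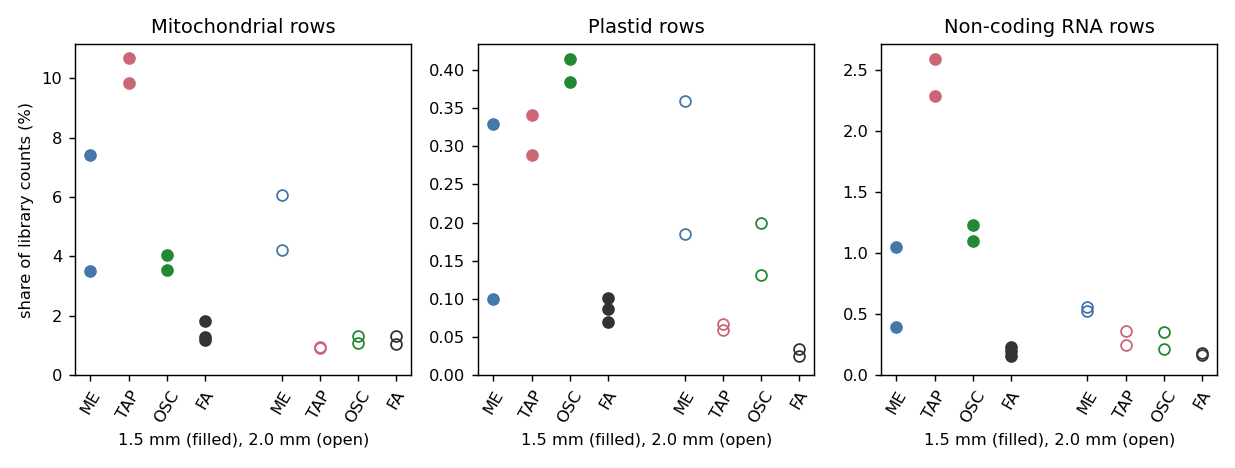
Share of library counts (percent) taken by mitochondrial, plastid and non-coding RNA rows in each library, by group, at 1.5 mm (filled) and 2.0 mm (open). At 1.5 mm the 3 FA libraries hold 1.20% to 1.83% mitochondrial counts, below all 6 captured libraries at 3.53% to 10.7%.

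Rows of the mitochondrial energy chain were among those below. All 4 tested atp rows, subunits of the ATP synthase, lay below the mixture under all 5 settings, as did the 3 cox rows of cytochrome c oxidase and cob, the cytochrome b of complex III. The nad rows of complex I had 2 of 4 tested below, the ccm rows of cytochrome c maturation 2 of 4, and the ribosomal protein rows 8 of 10. Transfer RNA rows had 5 of 10 below and open reading frames named orf 30 of 69. Over all tested mitochondrial rows the share was 52.7%, so the nad, ccm, transfer RNA and orf groups were at or under that of their class. Of the 3 ribosomal RNA rows, rrn5 alone was below under all 5 settings. These rows share the low mitochondrial total of FA and are not independent of each other.

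The ATP synthase subunit gene atp8 (ZeamMp081) had the largest shortfall among rows with a symbol. It held 5.90, 5.43 and 7.27 CPM in FA against 139 and 44.7 CPM in ME, 218 and 187 CPM in TAP, and 71.1 and 199 CPM in OSC. The groups did not overlap, and the prediction with square root weights was 127 CPM. The limma difference was -3.56 (SE 0.26, adjusted p = 2.07e-05) with those weights and -2.56 (SE 0.28, adjusted p = 0.000101) with the linear fit. In ccmFC (ZeamMp033), a heme lyase subunit of cytochrome c maturation, FA held 10.5, 9.31 and 8.43 CPM against a prediction of 126 CPM. The ME libraries held 138 and 93.4 CPM, TAP 196 and 126 CPM, and OSC 139 and 153 CPM, again without overlap, and its difference was -3.18 (SE 0.25, adjusted p = 3.14e-05 in limma). The transfer RNA row trnR-a (ZeamMt017) held 29.5 to 42.7 CPM in FA and 157 to 503 CPM in the captured libraries.

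Among abundant rows, rps1 (ZeamMp097), a protein of the small mitochondrial ribosomal subunit, held 1402, 1394 and 1151 CPM in FA against 9625 and 4470 CPM in ME, 8940 and 8478 CPM in TAP, and 4383 and 3694 CPM in OSC. All captured libraries lay above FA. The reading frame orf99-d (ZeamMp050) was similar in the 3 cell types, at 2275 ± 436 CPM in ME, 2327 ± 591 CPM in TAP and 2947 ± 1327 CPM in OSC (n = 2 each), and stood at 332 ± 59.2 CPM in FA (n = 3). Its prediction of 2281 CPM with square root weights was 6.87 times the FA level. The complex I subunit nad4 (ZeamMp032) was highest in TAP, at 2099 and 1419 CPM, and held 78.7, 140 and 84.9 CPM in FA. The subunits cox3 (ZeamMp161) and cox1 (ZeamMp136) of cytochrome c oxidase stood at 184 ± 55.3 and 196 ± 58.6 CPM in FA, against 1104 and 625 CPM predicted with the same weights. The ME libraries were far apart in cox3, at 3260 and 290 CPM. Among the 3 other pairings of captured replicates, swapping TAP alone repeats the linear fit, in which the TAP share was 0%. The linear call of cox3 was lost without ME replicate 1 (-1.05, adjusted p = 0.111 in limma), without OSC replicate 2 (-1.06, adjusted p = 0.143) and with 2 of the 3 other pairings of captured replicates (-1.43, adjusted p = 0.155). That of cox1 was lost without ME replicate 1 (-0.48, adjusted p = 0.0549 in limma), without FA replicate 2 (-0.83, adjusted p = 0.0777), without FA replicate 3 (-0.80, adjusted p = 0.0829) and without the low-count filter (-0.95, adjusted p = 0.0771).

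In 4 of the 20 rows with a symbol and at least 100 CPM the deficit was not called under all settings. The ribosomal RNA gene rrn26 gave -0.40 (SE 0.24, adjusted p = 0.180 in limma) with the linear fit and -1.82 (SE 0.18, adjusted p = 0.000120) with square root weights. The row of the small ribosomal RNA, rrn18 (ZeamMr004), gave -0.05 (adjusted p = 0.920 in limma) and -1.76 (adjusted p = 0.00287). In that row OSC replicate 2, at 2322 CPM, lay below FA replicate 2, at 2835 CPM. The orf147-b and rps4 rows gave -0.24 and -0.56 with the linear fit, neither called, and -1.06 and -1.58 with square root weights. The symbols rps4, rps7, rpl16 and trnK stand on more than 1 row, so their values are uncertain where reads were divided between copies.

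Plastid rows with a photosynthetic role were sparse. Of the psb rows of photosystem II 1 of 15 was tested, of the psa rows of photosystem I 2 of 5, and of the pet rows of the cytochrome b6f complex 2 of 6, and none of these was below under all 5 settings. The large Rubisco subunit rbcL had a difference of -0.84 with square root weights and -0.58 with the linear fit, and was not among those below under all 5 settings. The ndh rows of the plastid NDH complex had 4 of 8 tested below and the plastid atp rows 3 of 5, beside 39.2% of all tested plastid rows and 4.97% of all tested rows. The ndhC row (ZemaCp029) held 26.9, 38.0 and 21.5 CPM in FA against 346 and 292 CPM in OSC and 170 and 155 CPM in TAP. In ME it held 210 and 42.9 CPM, so ME replicate 2 came close to FA. The maturase matK (ZemaCp003) held 226, 203 and 152 CPM in FA and 709 and 915 CPM in OSC, but only 58.7 CPM in ME replicate 2, below FA. Its linear call (-0.56, adjusted p = 0.0406 in limma) was lost without FA replicate 2 (-0.66, adjusted p = 0.0718) and without FA replicate 3 (-0.27, adjusted p = 0.338). It was also lost with replicate number added to the model (-0.40, adjusted p = 0.248 in limma) and without the low-count filter (-0.56, adjusted p = 0.0952). The same held for 2 of the 3 other pairings of captured replicates (-0.53, adjusted p = 0.0828 in limma). Without OSC replicate 2 the difference was -0.29.

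**Figure D5:**
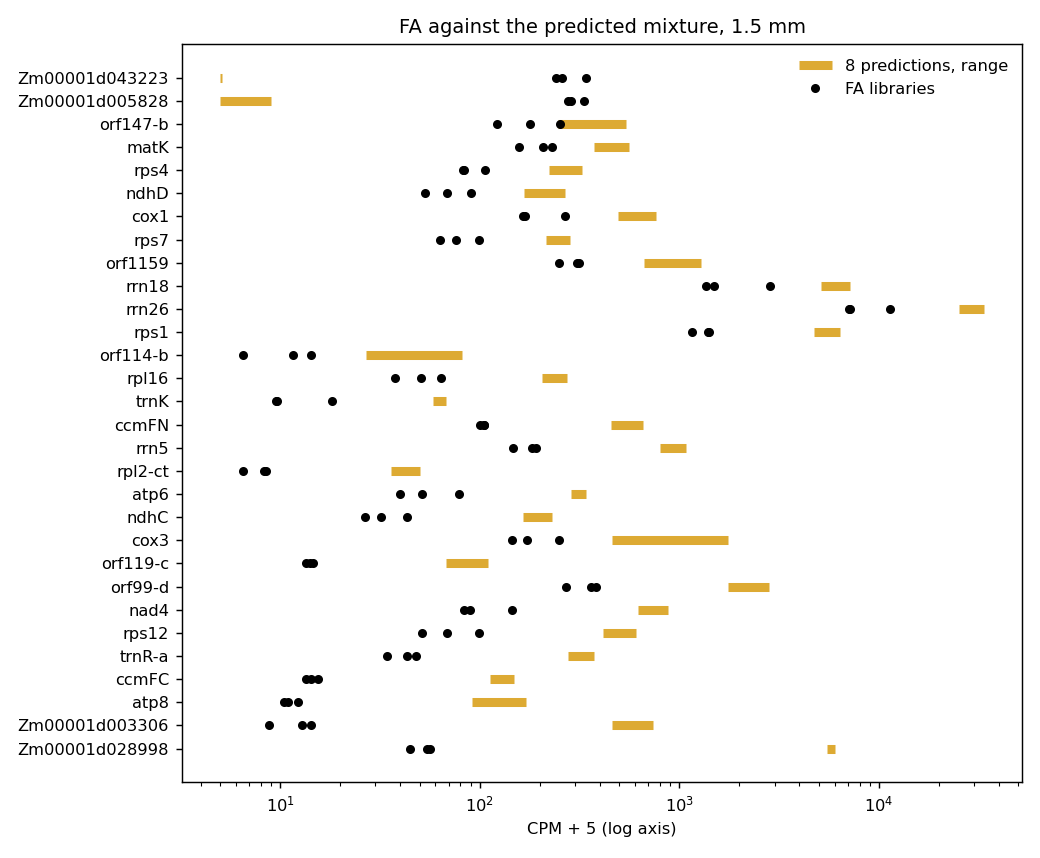
Levels of 30 rows in the 3 FA libraries at 1.5 mm (points, CPM + 5 on a log axis) and the range of the 8 predictions from 1 captured library per cell type with square root weights (bars). For 27 of the rows all FA points lie left of the bar; for Zm00001d043223 and Zm00001d005828 they lie right of it, and for orf147-b 1 point touches it.

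Another view needs no fitted share. A gene that is higher in FA than in each of the 3 cell types, or lower than in each, cannot be given by a mixture whose shares sum to 1. A sum of coefficients below 1, as in the linear fit, can give a gene lower than in each. With edgeR's quasi-likelihood test on the 9 libraries, FA was higher than ME for 3922 of 15965 genes (24.6%), higher than TAP for 1608 (10.1%) and higher than OSC for 696 (4.36%). FA was lower than ME for 1989 genes (12.5%), than TAP for 741 (4.64%) and than OSC for 568 (3.56%). The intersection held 75 genes higher in FA than in each cell type (0.470%) and 140 lower than in each (0.877%). That test used TMM-scaled libraries, and with library totals alone 102 genes were higher and 116 lower. The 75 were nuclear, and the 140 comprised 70 nuclear, 37 non-coding, 24 mitochondrial and 9 plastid rows. All 75 and 131 of the 140 were among the genes called off the mixture under all 5 settings. Both tests used the same 9 libraries, and a gene above each cell type also tends to lie above a weighted mean of them. The overlap is therefore no independent support.

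These counts rested on few libraries. Without any 1 of the FA libraries 6 (replicate 1), 10 (replicate 2) and 6 (replicate 3) genes were higher, and 36, 37 and 38 lower. Without OSC replicate 1 or 2 the numbers were 5 and 15 higher and 24 and 34 lower, and without TAP replicate 1 or 2 they were 35 and 23 higher and 82 and 77 lower. Leaving out ME replicate 1 or 2 raised them, to 322 and 232 higher and 246 and 325 lower.

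Genes higher in FA than in each cell type had a median of 119 CPM in FA, against 1.11 CPM in ME, 4.98 CPM in TAP and 3.68 CPM in OSC. These genes were chosen on the same libraries, so that gap is set by the choice. In the FA libraries of 2.0 mm their median was 12.5 CPM. A lower value there also follows in part from choosing on high FA at 1.5 mm, so it is given as a description. Zm00001d043223 had the largest excess over the mixture, with 235, 335 and 254 CPM (359, 431 and 873 counts) in FA at 1.5 mm. Among the 6 captured libraries it held 1 count, in ME replicate 1, and 0 in the other 5, and both FA libraries at 2.0 mm held 0 CPM. Its limma difference was 5.78 (SE 0.24, adjusted p = 1.39e-06), a value that depends on the pseudocount because the prediction is near 0. Zm00001d005828 followed, with 273, 330 and 280 CPM in FA, 10.0 CPM in TAP replicate 2, 3.56 CPM in OSC replicate 2, 0.429 CPM in ME replicate 1 and 0 in the other 3. Its difference was 5.74 (SE 0.23, adjusted p = 1.39e-06 in limma), and it held 7.0 and 3.03 CPM in FA at 2.0 mm.

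In all, 34 rows had at least 20 counts in each FA library and 3 or fewer over the 6 captured libraries together. All were nuclear, their FA means ran from 14.998 to 275 CPM, and together they made up 0.152% of FA counts. At 2.0 mm 21 of them had 3 or fewer counts over both FA libraries, and 23 had 3 or fewer over the 6 captured libraries. The reverse pattern, 3 or fewer counts over the 3 FA libraries but 20 or more on average per captured library, was found for 59 rows, all nuclear. The ME libraries had the most counts of the captured libraries, so this limit admits rows high in ME most easily. In the FA libraries of 2.0 mm 29 of the 59 had at least 20 counts in both. These limits cover counting error only, and 3 counts correspond to 10.7 CPM in the smallest library.

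The largest shortfalls were in nuclear genes of OSC. Zm00001d028998 held 14691 and 15458 CPM in OSC, 966 and 183 CPM in ME, and 261 and 67.7 CPM in TAP, but 51.1, 39.6 and 49.7 CPM in FA. Every captured library thus lay above every FA library, and the prediction with square root weights, 5781 CPM, was 124 times the FA mean. Its limma difference was -6.51 with the linear fit (SE 0.18, adjusted p = 1.33e-07), and the row carried 12.3% of the squared error of that fit. In edgeR it was not called lower than each of the 3 cell types. At 2.0 mm the same gene was close to its mixture, with 8104 and 6392 CPM in OSC and 2071 and 2248 CPM in FA (limma difference -0.28, adjusted p = 0.637). Zm00001d003306 held 1956 and 1222 CPM in OSC, 18.2 CPM or less in each ME and TAP library, and 7.87, 9.31 and 3.78 CPM in FA. Its difference was -5.34 (SE 0.30, adjusted p = 6.47e-06 in limma). At 2.0 mm it held 310 and 271 CPM in OSC and 130 and 361 CPM in FA.

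The mixture of 2.0 mm followed FA of that length more closely. The captured libraries also differed in depth, and the part of depth in this contrast was not tested. TAP held 2657831 and 3230264 counts at 2.0 mm against 495100 and 501897 at 1.5 mm. OSC held 1505065 and 2635680 against 815385 and 280760, while ME was deeper at 1.5 mm. Fitted in the same linear way to the means of their own length, the 2 FA libraries at 2.0 mm had coefficient sums of 0.814 and 0.863, an R2 of 0.814 and 0.846, and 21.8% and 17.2% of counts unmatched, against 29.4% to 29.9% for the 3 libraries at 1.5 mm. The shares were 20.3% and 12.6% ME, 31.0% and 49.1% TAP and 48.7% and 38.3% OSC. The ME share was 25.05 percentage points higher at 1.5 mm than at 2.0 mm and the TAP share differed by -38.2 points, without overlap of the libraries (exact two-sided permutation p = 0.2 for each, the smallest that 3 against 2 libraries allow). Fitted to nuclear rows, the TAP shares of both lengths overlapped, at 6.34% to 52.3% against 30.6% to 47.4% (a difference of -13.5 points, exact permutation p = 0.6). They also overlapped when rrn26 was left out, at 4.20% to 40.5% against 30.6% to 47.2% (a difference of -20.6 points, exact permutation p = 0.4). With square root weights the ME share was 9.61 points higher and the TAP share differed by -14.1 points, again without overlap (exact permutation p = 0.2 each). The OSC share was 13.1 points higher with the linear fit, 4.44 points higher with square root weights and differed by -3.93 points with nuclear rows (exact permutation p = 0.2, 0.6 and 1).

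With square root weights at both lengths, the median absolute difference from the prediction over all 15965 genes, about its own median, was 0.51 at 1.5 mm and 0.33 at 2.0 mm on the log2 scale. These genes passed the low-count filter in the 1.5 mm libraries. Genes low at 2.0 mm were thus kept and genes found only there left out, which can lower the spread at 2.0 mm. Genes chosen at 1.5 mm for being off the mixture must come out larger at that length, so their values at 2.0 mm are given as a description. The 793 genes below at 1.5 mm had a median difference of -1.65 there and -0.27 at 2.0 mm, where 67.0% of them lay below the prediction, against 43.4% of all tested genes. The 1682 genes above had medians of 1.42 and 0.22, and 68.7% lay above at 2.0 mm, against 56.1% of all tested genes. Across 15965 genes the differences at both lengths had a Pearson's r of 0.22, a description of genes that share no library between lengths. The limma test at 2.0 mm, with 2 FA libraries, called 2 genes above (0.0125%) and 4 below (0.0251%), and 2097 had an unadjusted p-value under 0.05. The mitochondrial median was -0.23 at 2.0 mm, against -1.67 at 1.5 mm, and the plastid median -0.70 against -1.45.

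FA of 1.5 mm was also fitted with the cell types of the other length. The 2.0 mm means gave 28.3% ME, 18.2% TAP and 53.5% OSC, with an R2 of 0.752 against 0.690 for the matched cell types. On the log2 scale the order was the opposite, with r = 0.892 against 0.906, and 30.6% against 29.3% of counts stayed unmatched. When the means of both lengths were offered together, 33.2% of the mixture came from ME at 1.5 mm and 0% from ME at 2.0 mm. For the somatic cells the 2.0 mm profiles took most of the weight, with 41.0% for OSC at 2.0 mm against 6.21% at 1.5 mm, and 15.8% for TAP at 2.0 mm against 3.78% at 1.5 mm. This fit reached an R2 of 0.784 and left 27.6% unmatched. Levels were compared within the deposited table, but the mitochondrial share was higher in TAP and OSC of 1.5 mm than of 2.0 mm. That share moves with these weights, and its part in them was not tested. Library depth moves with them as well, and its part was not tested either. The ME libraries held 2329806 and 2795716 counts at 1.5 mm against 974064 and 559302 at 2.0 mm. TAP and OSC were deeper at 2.0 mm.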

How the data were processed

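The deposited table holds raw counts of 17 libraries by gene, and gene lengths in bases. The submitters' processing notes name fastp, Trim Galore and HISAT2 without version. The genome build, annotation, counting of molecular identifiers and use of strand are not given in the sources used here. No coordinates or sequences are therefore printed, and genes that share reads with a copy, or overlap another gene, are uncertain. A line of library names, with no gene, was left out, and 0 columns per sample were unused. All 208 mitochondrial, 157 plastid and 153 of 154 microRNA rows matched RefSeq gene names, taken from the annotation of Zm-B73-REFERENCE-NAM-5.0. None of its coordinates were used, and 0 of 44146 nuclear rows matched, so the cell type marker lists had no members. Groups and replicate numbers came from sample titles.

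Mixtures were fitted with SciPy 1.17.1 and tested with limma 3.58.1 (trend, robust) on log2(CPM + 5). FA was tested against each cell type with edgeR 4.0.16 (quasi-likelihood, robust, TMM, filterByExpr with a minimum count of 10 and total of 15), with DESeq2 1.42.0 as an alternative, in R 4.3.3. The fits were also run on simulated exact mixtures. These were built without the organelle deficit of FA, so the runs do not vouch for the fits to FA. Called means a Benjamini-Hochberg adjusted p-value under 0.05. Rows with a symbol were named when called below (up to 10) or at least 100 CPM in FA or the prediction (up to 20); 0 were called above. Of nuclear rows, the 2 largest excesses and 2 largest shortfalls were named, with FA outside the 8 predictions and a mean of at least 20 counts. Members and lists were chosen with earlier results of these data known. Python 3.11.15, NumPy 2.4.6, pandas 2.3.3 and matplotlib 3.10.9 were used.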

Additional observations from a re-analysis of the deposited data

How the results depend on the processing

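Shares moved with the rows and weights used, and are given here as ME, TAP and OSC. They were 33.7%, 30.1% and 36.2% with nuclear rows, 24.95%, 30.5% and 44.5% without the 50 most abundant rows, 28.7%, 29.5% and 41.8% with square root weights, and 25.5%, 33.8% and 40.8% on the log2 scale. TMM-scaled library sizes gave 34.3%, 0% and 65.7%, the 2.0 mm means 28.3%, 18.2% and 53.5%, and the means of both lengths 33.2%, 19.6% and 47.2%. Settings added after the data were seen gave 35.7%, 21.5% and 42.9% without rrn26, 34.7%, 27.8% and 37.5% without mitochondrial rows, 48.9%, 0% and 51.1% with a sum forced to 1, and 27.4%, 34.5% and 38.1% with nuclear rows and square root weights. Nuclear rows gave 27.1%, 37.3% and 35.6% without ME replicate 1 and 36.6%, 24.4% and 39.0% without ME replicate 2. With all rows, leaving out libraries gave 31.3% to 45.5% ME, 0% to 13.2% TAP, 53.9% to 62.7% OSC and an R2 of 0.640 to 0.696.

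R2 was 0.745 with nuclear rows, -0.17 with square root weights, -0.54 on the log2 scale, 0.752 with the 2.0 mm means, 0.784 with both lengths, 0.727 without mitochondrial rows, 0.114 with a sum forced to 1 and 0.592 with nuclear rows and square root weights. It was 0.740 and 0.728 with nuclear rows without ME replicate 1 and 2.

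Genes above and below the mixture numbered 2629 and 1649 with the prediction scaled to 1, 2542 and 2555 with the median at 0, 3507 and 1657 with square root weights, 2678 and 1930 with equal shares, and 2155 and 2372 with square root weights and the median at 0. Leaving out 1 library gave 5995 to 9814 above and 472 to 1279 below. With square root weights the numbers were 4476 and 2274 without ME replicate 1, 4502 and 2014 without ME replicate 2, 3889 and 1757 without TAP replicate 1, 3890 and 1879 without TAP replicate 2, 4773 and 2262 without OSC replicate 1, and 4390 and 2045 without OSC replicate 2. They were 2267 and 1102, 2109 and 1076, and 1971 and 920 without FA replicates 1, 2 and 3. Of the 1682 genes above under all 5 settings, 1560, 1527 and 1499 were called again without FA replicates 1, 2 and 3. Of the 793 below, 666, 650 and 608 were called again. With a captured library left out, the other library of its cell type entered both predicted profiles. Their spread was then too small, so the calls of those fits are no measure of robustness. Genes higher and lower than each cell type numbered 42 and 144 with all 17 libraries in 1 fit, 115 and 269 with DESeq2, and 100 and 223 without the low-count filter. They ran from 5 to 322 and from 24 to 325 when 1 library was left out.

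The labels do not say whether same-numbered samples belong together. Correlations of their deviations ran from -0.0242 to 0.0220, which cannot show whether they do. With a replicate block 6932 genes lay above and 646 below, and 7 were higher and 29 lower than each cell type. The OSC difference between lengths reversed to -3.93 points with nuclear rows. For rrn18 the difference reversed to 0.15 with the block and 0.23 without FA replicate 3, in a range of -0.42 to 0.23 over libraries left out. For orf147-b it reversed to 0.026 with the block, 0.39 without ME replicate 1 and 0.08 without FA replicate 3, in a range of -0.78 to 0.39. For these the cause was not tested. Of the comparisons of named rows, 828 kept direction and side of the threshold, 48 passed it anew and 23 no longer did. Depth limits low genes, since 3 counts correspond to 10.7 CPM in OSC replicate 2.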
